A study of Mus musculus with 7 samples.

Results

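The 44 genes described here encode proteins of the centrosome and its satellites: every gene in the table whose symbol is Cep followed by a number, without Cep55, and in addition Pcm1, Pcnt, Cdk5rap2, Akap9, Akap6, Ninl, Nin, Cntrl and Sass6. They were picked by name and not by any measured value, out of 17404 genes in the table. Of the 44, 43 had a mean expression value of at least 0.5 over the 7 libraries and entered the test with 12715 genes in all, while Cep295nl, at a mean of 0.24, did not. Of the 43 tested genes, 0 passed an adjusted p of 0.05 between the strains in limma, beside 1.65% of all tested genes. In 7 (16.3%), led by Nin, Cep152, Cep250 and Pcnt, every BALB/cByJ library had a lower value than any BALB/cJ library. Among all tested genes 17.0% had ranges that did not overlap, 12.6% lower and 4.33% higher in BALB/cByJ.

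The centrosome is the main microtubule organizing centre of a dividing animal cell. A pair of centrioles at its core is duplicated in each cell cycle and is surrounded by pericentriolar material that nucleates and anchors microtubules, and the older centriole carries appendages with which it can dock at the membrane and found a cilium. Heart muscle cells are a special case: around birth several of these proteins, Pcm1 and Pcnt among them, leave the centrosome for the outer face of the nuclear envelope, where Akap6 holds them on an isoform of nesprin-1, and the nucleus takes over as the place from which microtubules grow.

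RNA-Seq was performed on the heart ventricles of BALB/cByJ and BALB/cJ neonates at postnatal day 4, with 3 BALB/cByJ and 4 BALB/cJ libraries. BALB/cByJ and BALB/cJ are sister inbred strains; BALB/cByJ carries a natural deletion in Cyth1, BALB/cJ a retroviral insertion in an intron of Zhx2, and no animal received a treatment. Each library pooled 3 to 4 hearts by the labels, a number on which the study's own text is not uniform, and neither the sexes of the pups nor their litters are stated, so p-values measure only the spread between these pools. In bulk ventricle, fewer cells of a type and less RNA per cell cannot be told apart.

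The deposited values are scaled for depth and transcript length, so levels can be set side by side between genes, but the number of reads per library is unknown and no counting interval is given. Values of a library summed to between 543023 and 628977, and between 11815 and 11979 genes reached a value of 1. Cyth1 read 0.10 to 0.19 in BALB/cByJ and 25.8 to 27.0 in BALB/cJ (log2 fold change -4.58, adjusted p 5.4e-13, limma), the direction that its deletion in BALB/cByJ gives. All 4 Y-linked genes were called higher in BALB/cByJ (adjusted p 0.0119 to 0.045, limma), with summed levels of 80.2 to 128 there and 0.04 to 37.6 in BALB/cJ, so the male share of the pools and the strain cannot be told apart. Some libraries stood apart: the summed erythroid markers were highest in BALB/cJ 2 (8420, against 2580 to 5650 elsewhere), and the summed T cell and thymus markers in BALB/cJ 3 (7.38, against 0.37 to 2.77). Cardiomyocyte markers were abundant in all 7 libraries, with sums of 19000 to 24200, whereas the markers of multiciliated cells, which build many centrioles, summed to 0.66 to 1.59.

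Levels of the 43 tested genes were low to moderate. Their median expression value was 5.21, and 8 of 43 (18.6%) lay above 10.1, the median of all tested genes. The 3 highest were Cep68, Akap6 and Pcm1. Cep68, a protein of the fibres that tie the older and younger centriole together, read 21.75, 24.53 and 19.71 in BALB/cByJ and 21.68, 21.33, 24.75 and 26.22 in BALB/cJ. Akap6, the nuclear envelope anchor of heart muscle, read 21.18, 23.03 and 21.20 in BALB/cByJ and 22.49, 17.13, 19.55 and 21.61 in BALB/cJ. Pcm1, the scaffold of centriolar satellites and a marker of cardiomyocyte nuclei, read 16.53, 19.86 and 16.65 against 19.43, 13.73, 17.63 and 18.86. The ranges of the strains overlapped in all 3 genes, and BALB/cJ 2 was the lowest BALB/cJ library for each. Means over the 7 libraries were 22.9, 20.9 and 17.5, which put the genes at percentiles 72.6, 70.6 and 66.2 of the tested genes. Akap6 exceeded Pcm1 in 7 of 7 libraries, whereas Cep68 exceeded Akap6 in 5 of 7, and the means of those 2 genes differed by less than the spread between libraries.

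At the other end were Ninl, a relative of ninein (mean 0.843), Cep290, a gatekeeper protein at the base of the cilium (1.32), and Cep152, the scaffold that recruits the kinase Plk4 to the parent centriole (1.72). The untested Cep295nl read 0.11, 0.37 and 0.05 in BALB/cByJ and 0.32, 0.24, 0.24 and 0.35 in BALB/cJ, with overlapping ranges. It lies at chr11:118332360-118342542 (GRCm38.p6, minus strand) inside the span of Timp2, an inhibitor of matrix metalloproteinases with 67.3 ± 10.4 in BALB/cByJ and 85.4 ± 4.71 in BALB/cJ (SD, n = 3 and 4; adjusted p 0.131, limma), on the chromosome that also holds Cyth1. In all, 12 of the 44 genes (27.3%) overlap another coding gene, and whether reads were counted by strand is not stated.

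**Figure D1:**
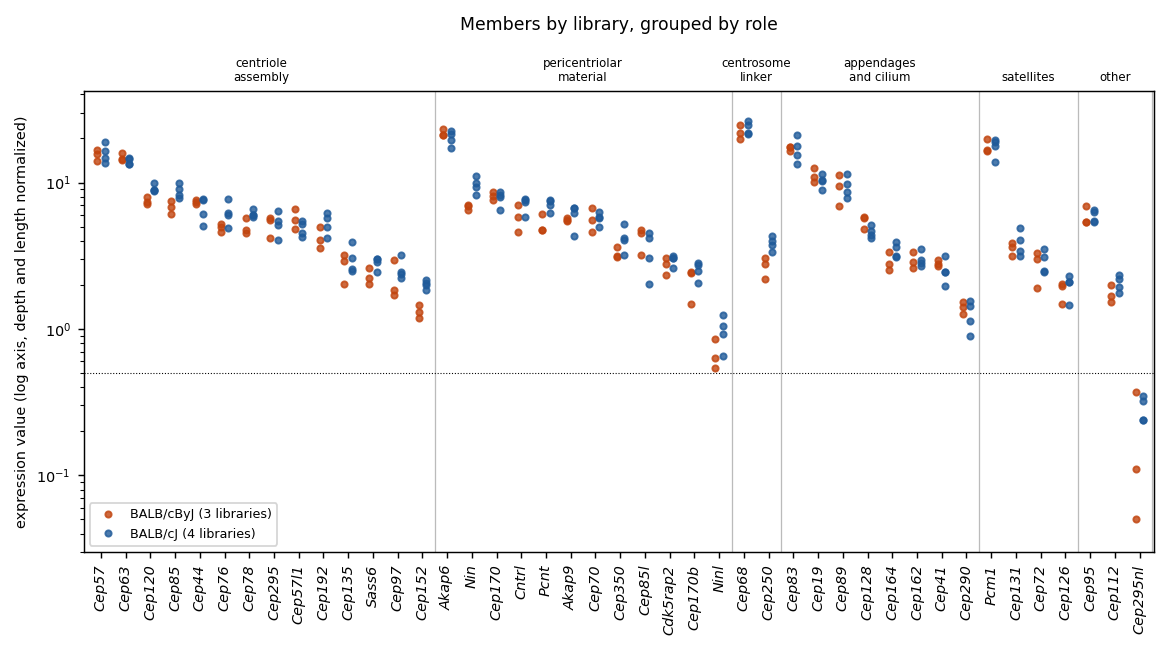
Expression values (depth and length normalized, log axis) of 43 of the 44 genes in each library, BALB/cByJ in orange and BALB/cJ in blue, grouped by role and ordered by mean; the dotted line marks the test's minimum mean of 0.5. Points of both colours overlap in most genes, and Cep295nl is the gene whose mean lies under the line.

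No gene of the 43 passed the test between the strains: 0 had an adjusted p under 0.05 in limma, the smallest being 0.0708 for Nin, against 210 of 12715 tested genes (1.65%, with 0.881% lower and 0.771% higher in BALB/cByJ). At an unadjusted p under 0.05 there were 7 genes (16.3%), all lower in BALB/cByJ, beside 18.3% of all tested genes (13.3% lower and 5.06% higher). The same 7 were those whose ranges did not overlap, beside 17.0% of all tested genes (12.6% lower and 4.33% higher). Of the 43 log2 fold changes, 31 (72.1%) were below 0, beside 65.2% of all tested genes, and the median was -0.085 beside -0.073. These shares lay near the background, which was not matched for transcript length. The direction of the median depended little on scaling but its size did, being -0.005 after quantile normalization (all tested genes -0.013) and -0.021 after median ratio scaling (all tested genes -0.005). Without BALB/cByJ 1 the median was -0.036 and without BALB/cJ 2 it was -0.145, beside -0.066 and -0.077 for all tested genes. At an unadjusted p under 0.05, quantile normalization gave 6 genes (4 lower), beside 15.2% of all tested genes (7.06% lower), and median ratio scaling 6 (5 lower), beside 16.1% (7.0% lower), so that under either scaling fewer of all tested genes at this p were lower than higher. With Y-linked expression as a covariate there were 4 (9.3%, all lower), namely Nin, Cep152, Cep250 and Cep76, beside 16.6% (13.0% lower).

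For each gene taken alone, the main fit nevertheless bounded the difference between these pools. All 43 intervals of the log2 fold change (95%) lay between -0.7 and 0.7, the lowest bound being -0.68 (Nin) and the highest 0.63 (Cep85l). The scale is log2(value + 1), which understates the change of genes with values near 1. With a pseudocount of 0.1 the estimate moved from -0.38 to -0.59 for Cep152 and from -0.23 to -0.45 for Ninl. A p that misses the threshold does not show equal levels, so intervals are given for most of the named genes.

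**Figure D2:**
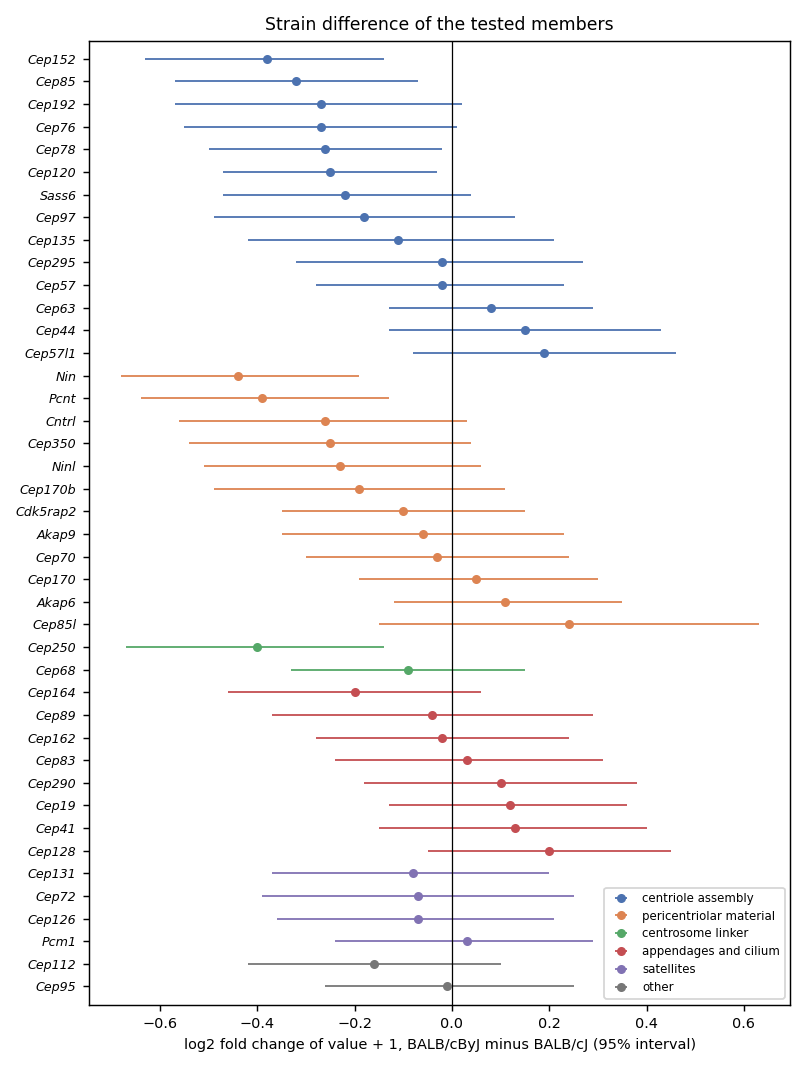
Log2 fold change of value + 1, BALB/cByJ minus BALB/cJ, with its 95% interval from limma for 42 of the 43 tested genes, coloured by role. Intervals of 7 genes lie wholly below 0 and none lies wholly above 0, with point estimates from -0.44 (Nin) to 0.24 (Cep85l).

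Proteins of the pericentriolar material and of microtubule anchoring were represented by 12 genes, of which 9 (75%, beside 65.2% of all tested genes) had a log2 fold change below 0 (median -0.14) and 2 (16.7%, beside 18.3%) an unadjusted p under 0.05. Nin encodes ninein, which anchors microtubule minus ends at the subdistal appendages of the older centriole. It read 6.52, 6.97 and 6.92 in BALB/cByJ and 9.37, 8.2, 9.87 and 11.04 in BALB/cJ, so that the 3 BALB/cByJ libraries lay within a narrow band below all 4 BALB/cJ libraries. The means were 6.80 ± 0.247 and 9.62 ± 1.18 (SD, n = 3 and 4), 1.41-fold higher in BALB/cJ. The log2 fold change was -0.44 with a standard error of 0.11 and an interval of -0.68 to -0.19, and its adjusted p in limma was 0.0708 (0.0507 to 0.308 over the alternatives). The lowest of these was reached without BALB/cJ 2. Nin spans chr12:70011435-70113811 (GRCm38.p6, minus strand) and overlaps the predicted gene Gm9997.

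Pcnt encodes pericentrin, a large coiled-coil scaffold of the pericentriolar material. Its values were 4.77, 6.11 and 4.72 in BALB/cByJ and 7.53, 6.23, 7.61 and 7.01 in BALB/cJ. The ranges met closely, BALB/cByJ 2 at 6.11 lying just under BALB/cJ 2 at 6.23. The mean of 7.10 ± 0.635 in BALB/cJ was 1.36-fold that of 5.20 ± 0.788 in BALB/cByJ (log2 fold change -0.39, interval -0.64 to -0.13, adjusted p 0.113, limma). With Y-linked expression added as a covariate the unadjusted p of Pcnt was 0.0733.

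The other proteins that share the nuclear envelope of heart muscle with Pcnt gave no such separation. Akap6 had 21.8 ± 1.06 in BALB/cByJ and 20.2 ± 2.39 in BALB/cJ (log2 fold change 0.11, interval -0.12 to 0.35, adjusted p 0.614, limma). Akap9, a kinase anchor that also binds gamma-tubulin complexes, read 5.45, 5.76 and 5.57 in BALB/cByJ and 6.68, 4.31, 6.17 and 6.67 in BALB/cJ. BALB/cJ 2 lay below every other library and the remaining BALB/cJ libraries above all of BALB/cByJ. Over all libraries its log2 fold change was -0.06 (interval -0.35 to 0.23, adjusted p 0.837, limma), and without BALB/cJ 2 it was -0.19 with an unadjusted limma p of 0.122. Pcm1 differed by 0.03 (interval -0.24 to 0.29, adjusted p 0.931, limma), and without BALB/cJ 2 by -0.08. Syne1, which encodes nesprin-1 and is not among the 44, read 23.32 to 30.45 in BALB/cByJ and 26.89 to 29.33 in BALB/cJ (log2 fold change -0.09, adjusted p 0.667, limma).

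Cntrl, encoding centriolin of the older centriole, read 4.62, 5.80 and 7.04 in BALB/cByJ and 7.63, 5.85, 7.36 and 7.73 in BALB/cJ. The strains overlapped only through BALB/cJ 2, which lay under BALB/cByJ 3 (log2 fold change -0.26, interval -0.56 to 0.03, adjusted p 0.316, limma). The estimate was -0.13 without BALB/cByJ 1 and -0.39 without BALB/cByJ 3. Ninl read 0.54, 0.86 and 0.63 against 1.04, 0.65, 1.25 and 0.93, again with an overlap made by BALB/cJ 2 (log2 fold change -0.23, interval -0.51 to 0.06, adjusted p 0.381, limma). The largest positive difference of all 43 genes was that of Cep85l, a pericentriolar protein needed by migrating neurons, with 4.71, 4.55 and 3.20 in BALB/cByJ and 3.03, 2.04, 4.15 and 4.5 in BALB/cJ. These ranges overlapped and the spread was wide (log2 fold change 0.24, interval -0.15 to 0.63, adjusted p 0.495, limma), the difference without BALB/cJ 2 being 0.07. The span of Cep85l on chromosome 10 contains Pln, which encodes phospholamban, the abundant inhibitor of the calcium pump of heart muscle, at 2840 ± 353 in BALB/cByJ and 2160 ± 346 in BALB/cJ (SD, n = 3 and 4; log2 fold change 0.40, adjusted p 0.231, limma). Its part in the Cep85l values was not tested.

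**Figure D3:**
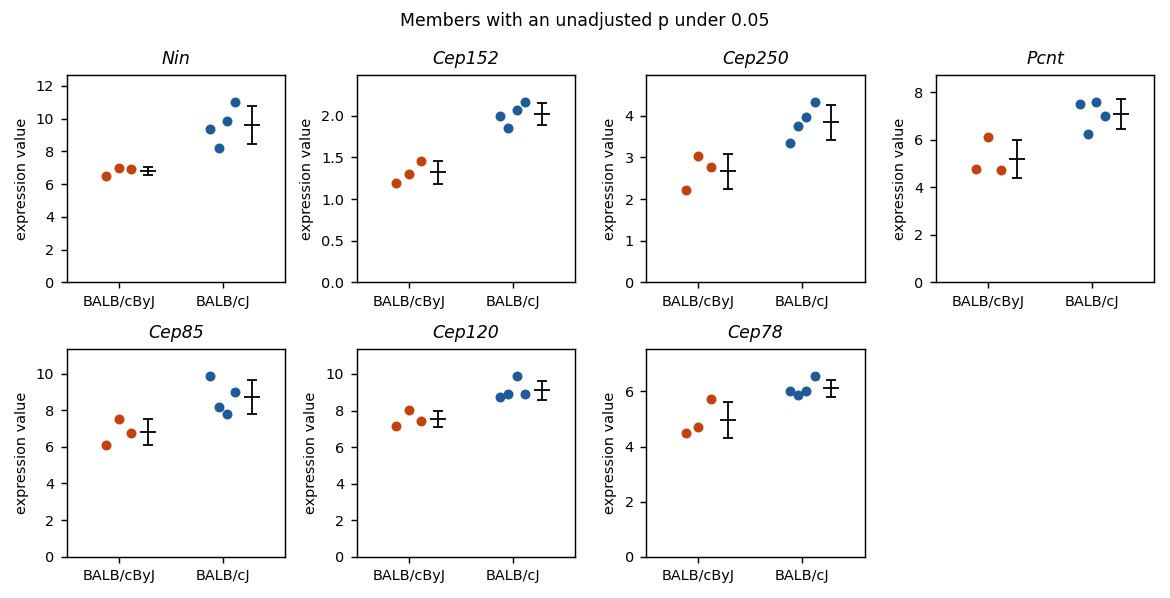
Expression values of the 7 genes with an unadjusted limma p under 0.05, 1 panel per gene with an axis from 0; points are libraries and bars the mean ± SD (BALB/cByJ n = 3, BALB/cJ n = 4). In each panel every BALB/cByJ point lies below every BALB/cJ point, as for Nin with at most 6.97 against at least 8.2.

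Of the 14 genes of centriole assembly and duplication, Cep78 among them, 11 (78.6%, beside 65.2% of all tested genes) had a log2 fold change below 0 (median -0.20). An unadjusted limma p under 0.05 was reached by 4, all lower (28.6%, beside 18.3% of all tested genes, 13.3% lower), and 0 were called. Cep152 read 1.19, 1.30 and 1.46 in BALB/cByJ and 2.0, 1.85, 2.07 and 2.17 in BALB/cJ. All values were low, with a clear gap between the strains. The means of 1.32 ± 0.136 and 2.02 ± 0.135 (SD, n = 3 and 4) differed 1.54-fold, the widest ratio of the 7 genes, with a log2 fold change of -0.38 (interval -0.63 to -0.14, adjusted p 0.101 in limma, 0.0788 to 0.336 over the alternatives). Cep152 spans chr2:125549864-125625174 (GRCm38.p6, minus strand).

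Cep85, which helps to activate Plk4 through Stil, read 6.09, 7.52 and 6.77 in BALB/cByJ and 9.87, 8.18, 7.81 and 9.02 in BALB/cJ. The highest BALB/cByJ and the lowest BALB/cJ value were 7.52 and 7.81, so the gap was small (log2 fold change -0.32, interval -0.57 to -0.07, adjusted p 0.170, limma). Cep120, needed for centriole elongation, read 7.15, 8.02 and 7.40 in BALB/cByJ and 8.75, 8.92, 9.89 and 8.93 in BALB/cJ. Here 3 of the BALB/cJ libraries were nearly equal and BALB/cJ 3 was higher (log2 fold change -0.25, interval -0.47 to -0.03, adjusted p 0.221, limma). Cep78, a protein of the centriole wall needed for normal cilia, read 4.49, 4.71 and 5.71 against 6.01, 5.86, 6.0 and 6.56. BALB/cByJ 3 came close to the BALB/cJ range (log2 fold change -0.26, interval -0.50 to -0.02, adjusted p 0.244, limma). After quantile normalization the unadjusted limma p was 0.15 for Cep120 (log2 fold change -0.14) and 0.162 for Cep78. Without BALB/cByJ 1 the unadjusted limma p of these genes was 0.0703 for Cep85, 0.089 for Cep120 and 0.137 for Cep78. With Y-linked expression as a covariate it was 0.275 for Cep85, 0.0706 for Cep120 and 0.113 for Cep78.

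The remaining assembly genes overlapped between the strains. Cep76, which limits reduplication, read 4.59, 5.24 and 4.98 against 4.92, 5.99, 6.16 and 7.75 (log2 fold change -0.27, interval -0.55 to 0.01, adjusted p 0.296, limma). Its estimate was -0.17 without BALB/cJ 4 and -0.53 with Y-linked expression as a covariate (limma p 0.00542 unadjusted and 0.175 adjusted). Cep192, which brings Plk4 and Aurora A to the centrosome, read 3.57, 4.02 and 4.97 against 5.73, 4.18, 4.98 and 6.24 (log2 fold change -0.27, interval -0.57 to 0.02, adjusted p 0.306, limma). Sass6, the building block of the cartwheel that sets the radial symmetry of a new centriole, read 2.04, 2.24 and 2.62 against 2.88, 2.45, 3.00 and 2.99 (log2 fold change -0.22, interval -0.47 to 0.04, adjusted p 0.342, limma). In both Cep192 and Sass6 the overlap was that of BALB/cByJ 3 with BALB/cJ 2. The most abundant gene of this group was Cep57, which holds pericentriolar material to the centriole, with 15.77, 14.06 and 16.79 in BALB/cByJ and 13.62, 14.67, 16.32 and 19.01 in BALB/cJ. Its lowest and highest values were both in BALB/cJ (log2 fold change -0.02, interval -0.28 to 0.23, adjusted p 0.935, limma).

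Of the pair of linker genes, Cep250, which encodes C-Nap1, the protein that seats the linker on the end of each centriole, read 2.21, 3.04 and 2.77 in BALB/cByJ and 3.34, 3.75, 3.98 and 4.34 in BALB/cJ. All 4 BALB/cJ values exceeded the BALB/cByJ values, 1.44-fold in the means of 2.67 ± 0.423 and 3.85 ± 0.419 (SD, n = 3 and 4). The log2 fold change was -0.40 (interval -0.67 to -0.14) with an adjusted p of 0.111 in limma, 0.096 to 0.339 over the alternatives. Cep250 spans chr2:155956285-155998900 (GRCm38.p6, plus strand) and overlaps the coding gene 6430550D23Rik. Its partner in the linker, Cep68, read 22.0 ± 2.42 and 23.5 ± 2.38 (log2 fold change -0.09, interval -0.33 to 0.15, adjusted p 0.690, limma). The difference between these genes was not tested.

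Of the 9 genes filed under appendages and cilium, 5 had a log2 fold change above 0 and 4 (44.4%, beside 65.2% of all tested genes) below. The median was 0.03 and the range -0.20 to 0.20. An unadjusted limma p under 0.05 was reached by 0, beside 18.3% of all tested genes, and 9 genes are too few to set the role apart. Other genes of the older centriole or its appendages were filed elsewhere: Nin (-0.44) and Cntrl (-0.26) under pericentriolar material, and Odf2 (-0.42) outside the 44. Cep78 (-0.26), needed for normal cilia, was counted under assembly. Of the 9, Cep83, which seats the distal appendages, was the most abundant with 17.41, 16.44 and 17.60 in BALB/cByJ and 13.41, 15.50, 17.83 and 20.98 in BALB/cJ. The BALB/cByJ values lay in the middle of the wide BALB/cJ range (log2 fold change 0.03, interval -0.24 to 0.31, adjusted p 0.915, limma), and the estimate turned to -0.27 with Y-linked expression as a covariate and to -0.06 without BALB/cJ 1. Cep290 read 1.27, 1.41 and 1.53 against 1.55, 0.89, 1.14 and 1.44 (log2 fold change 0.10, interval -0.18 to 0.38, adjusted p 0.711, limma). The satellite genes Cep72, Cep126 and Cep131 lay far below Pcm1, at means of 2.82, 1.92 and 3.72, and all 4 satellite genes had estimates between -0.08 and 0.03, that of Cep131 turning to 0.17 with the same covariate. Cep95 and Cep112 made up the rest, Cep95 with 5.35, 5.41 and 6.91 against 5.35, 5.50, 6.28 and 6.49 (log2 fold change -0.01, interval -0.26 to 0.25, adjusted p 0.983, limma).

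Promoters were searched for motifs with a known part in cell cycle or ciliary transcription, in the 250 bases before each start that RefSeq lists for 37 of the 44 genes (GRCm38.p6), on both strands. The cell cycle homology region was searched as TTTGAA and was found in 7 of the 37 genes (18.9%), beside 12.8% of 10132 tested genes and 18.3% of all 27025 genes with a promoter in the set (16.0% of single promoters). The CCAAT box, bound by NF-Y, was searched as CCAAT and was found in 18 (48.6%), beside 40.9% of tested genes and 37.5% of all genes (33.8% of single promoters). Of the 7 genes whose strain ranges did not overlap, Nin and Cep152 are shown because they had the smallest p. Capitals mark TTTGAA in Nin and the 3 CCAAT boxes in Cep152 (as CCAAT or ATTGG). In Nin the letters stand as TTCAAA on the other strand, 98 to 93 bases before a start among its 3 listed ones, within the span of the gene. Nin also counts among the 18 genes with a CCAAT box, but the window shown holds none. Both sequences run 5′ to 3′ on the minus strand, Nin at chr12:70112036-70112285 and Cep152 at chr2:125625114-125625363.
Nin: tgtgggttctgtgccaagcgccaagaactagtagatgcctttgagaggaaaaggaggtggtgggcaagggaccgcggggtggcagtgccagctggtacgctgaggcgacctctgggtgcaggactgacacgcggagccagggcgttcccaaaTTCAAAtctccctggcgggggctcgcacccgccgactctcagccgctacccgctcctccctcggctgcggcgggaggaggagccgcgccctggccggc
Cep152: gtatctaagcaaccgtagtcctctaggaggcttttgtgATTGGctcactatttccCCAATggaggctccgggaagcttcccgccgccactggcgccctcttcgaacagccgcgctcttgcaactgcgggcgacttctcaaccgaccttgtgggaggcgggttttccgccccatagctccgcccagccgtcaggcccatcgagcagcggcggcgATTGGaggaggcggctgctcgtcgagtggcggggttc

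The promoters of Cep250 and Pcnt held neither set of letters in this window, which says nothing of any factor. Another motif, the X-box bound by RFX factors that drive many ciliary genes, was searched in a relaxed form (GT, any 2 bases, CC, any 3 bases, G, any base, AAC) and was found in 4 of the 37 genes (10.8%), beside 2.60% of tested genes and 2.07% of all genes (1.80% of single promoters). The 4 matches are shown, in capitals with their flanks and 5′ to 3′ along the gene, because this motif had the widest ratio of its share here to that of tested genes among the 3 motifs, a description with no test. They lie at chr12:52699275-52699318 (plus strand) for Akap6, chr11:108425016-108425054 (plus) for Cep112, chr8:56550654-56550697 (minus) for Cep44 and chr10:94688761-94688789 (plus) for Cep83, where the match is on the other strand and ends at the base before the start.
Akap6: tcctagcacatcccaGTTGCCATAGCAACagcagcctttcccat
Cep112: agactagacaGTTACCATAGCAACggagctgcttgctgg
Cep44: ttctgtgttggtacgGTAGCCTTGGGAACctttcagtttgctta
Cep83: ctctcagccctccgaGTTTCCCGGGCTAC

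In the strain comparison these 4 genes had log2 fold changes of 0.11 for Akap6, -0.16 for Cep112, 0.15 for Cep44 and 0.03 for Cep83, those of Cep44 and Cep83 turning to -0.16 and -0.27 with Y-linked expression as a covariate. None passed the test, and the letters alone do not show that a factor binds there.

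Single libraries contributed unevenly to the spread of the 43 genes. In deviations from the mean of all 7 libraries, on the log2 scale, the median of the 43 genes was -0.14 in BALB/cByJ 1 and 0.18 in BALB/cJ 4, beside -0.05 and 0.07 for all tested genes. BALB/cByJ 1 was the lowest of its strain in 25 of 43 genes (58.1%) and BALB/cJ 2 the lowest of its strain in 25 of 43 (58.1%), beside 36.2% and 29.4% of all tested genes, each symbol counted once (12714). BALB/cJ 4 was the highest of its strain in 26 of 43 (60.5%), beside 34.9%. Among pericentriolar genes BALB/cJ 2 was the lowest BALB/cJ library in 12 of 12 (median deviation -0.15), and among assembly genes BALB/cByJ 1 was the lowest of its strain in 10 of 14 (median deviation -0.24). The difference between these roles was not tested.

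**Figure D4:**
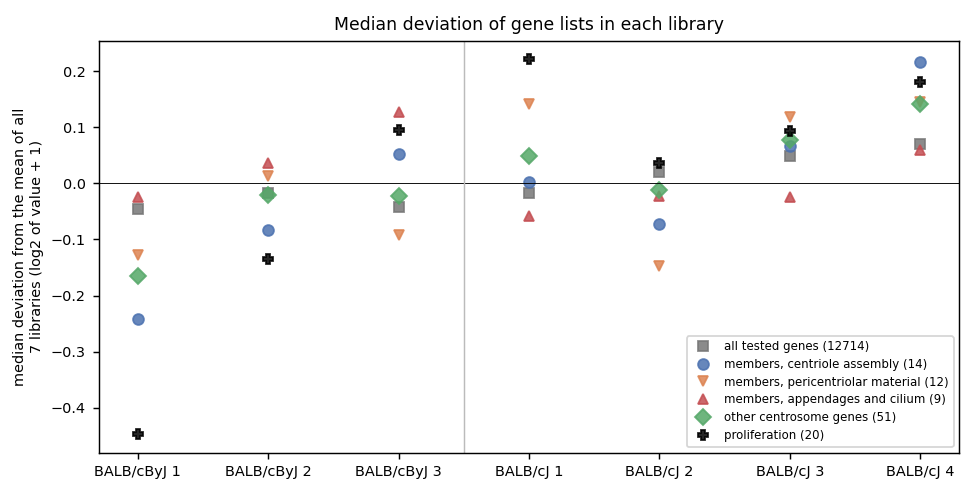
Median deviation of gene lists from the mean of all 7 libraries, in log2 of value + 1, for each library. Assembly genes are lowest in BALB/cByJ 1 (-0.24) and highest in BALB/cJ 4 (0.22), proliferation genes are lowest in BALB/cByJ 1 (-0.45), and pericentriolar genes are lowest in BALB/cJ 2 (-0.15).

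Proliferation genes were low in BALB/cByJ 1 together with the assembly genes. Across 20 proliferation genes the summed level was 524 in BALB/cByJ 1 and 649 to 787 in the other 6 libraries, and BALB/cByJ 1 was the lowest of its strain in 18 of 20 (90%). Between the strains 3 of the 20 were called lower in BALB/cByJ and 0 higher (15%, beside 1.65% of all tested genes). The first of them was Aurka, the kinase that matures centrosomes at entry into mitosis, with 12.81, 16.70 and 17.12 in BALB/cByJ and 26.74, 24.51, 24.03 and 28.49 in BALB/cJ. The strains were far apart, 1.67-fold in the means (log2 fold change -0.71, adjusted p 0.00715, limma). The others were Rrm2, a subunit of ribonucleotide reductase (-0.66, adjusted p 0.0208, limma), and Cdc20, an activator of the anaphase-promoting complex (-0.64, adjusted p 0.022, limma). Without BALB/cByJ 1 or without BALB/cJ 4, 1 of the 20 was called. Without BALB/cByJ 1, 4 of the 43 centrosomal genes (9.3%, all lower) had an unadjusted p under 0.05, beside 13.5% of all tested genes (9.57% lower). The 20 genes were listed with earlier results of these data known, so their share of calls is descriptive. The part of cycling cells in the values of the centrosomal genes was not tested.

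Low values in BALB/cJ 2, the library with the highest summed erythroid markers (8420), went with transcript length. Of the 43 genes, 12 (27.9%) have a longest annotated transcript over 8000 bases, beside 9.51% of tested genes with a known length, and their median length is 6421 bases beside 4428.5. BALB/cJ 2 was the lowest BALB/cJ library for 10.1% of all tested genes with transcripts under 1500 bases and for 62.1% of those over 8000 bases. It was lowest for 11 of the 12 long centrosomal genes (91.7%), the exception being Cep250 with its lowest value in BALB/cJ 1. Their median deviation from the strain mean in BALB/cJ 2 was -0.23, beside -0.13 for all long genes, while for centrosomal genes of 5000 to 8000 bases it was -0.10 beside -0.06. Without BALB/cJ 2, 11 of the 43 genes (25.6%, all lower in BALB/cByJ) had an unadjusted p under 0.05, beside 18.6% of all tested genes (13.2% lower), and 0 were called in limma. Without BALB/cByJ 3, 11 (10 lower) did so, beside 13.5% (9.6% lower). The part of RNA quality or of length in these values was not tested.

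**Figure D5:**
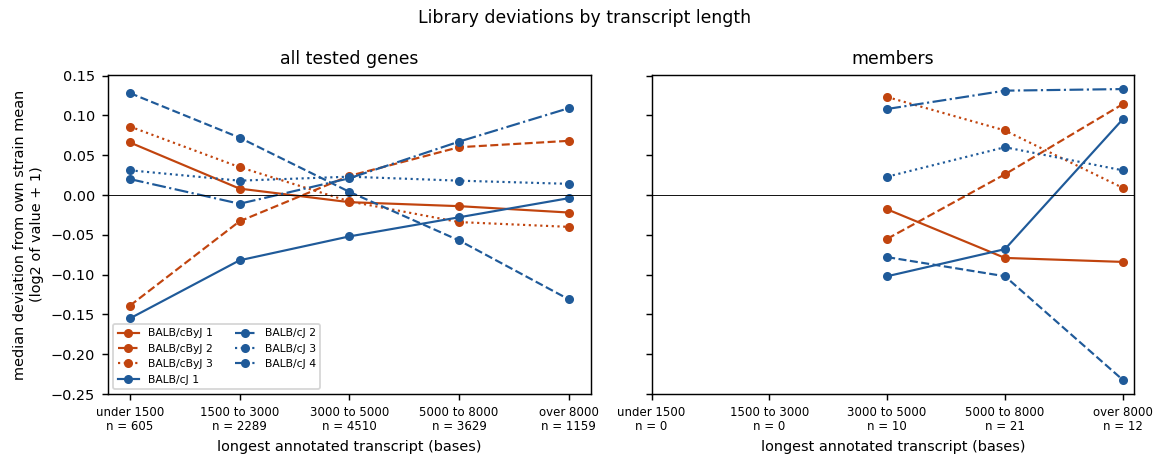
Median deviation of each library from the mean of its own strain, in log2 of value + 1, by longest annotated transcript, for all tested genes (left) and the 43 centrosomal genes (right, none under 3000 bases). BALB/cJ 2 falls from 0.13 at under 1500 bases to -0.13 at over 8000 bases among all tested genes and reaches -0.23 in the long centrosomal genes.

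A further 51 genes of the centrosome were outside the naming rule, and all 51 were tested. Of these, 1 rose and 1 fell in BALB/cByJ (3.92%, beside 1.65% of all tested genes), 44 (86.3%, beside 65.2%) had a log2 fold change below 0, and the median was -0.114 beside -0.073. After quantile normalization the median was -0.047 beside -0.013, after median ratio scaling -0.044 beside -0.005, and without BALB/cByJ 1 -0.074 beside -0.066. Nek2, the kinase that loosens the centrosome linker through Cep250 before mitosis, read 4.99, 7.53 and 7.79 in BALB/cByJ and 10.89, 11.27, 10.05 and 11.89 in BALB/cJ. The strains were well separated, with means of 6.77 ± 1.55 and 11.0 ± 0.77 (SD, n = 3 and 4), and Nek2 fell by 0.65 on the log2 scale (standard error 0.13, adjusted p 0.0266 in limma, 0.0188 to 0.178 over the alternatives). Rttn, encoding rotatin, which acts in centriole elongation, rose from 1.35 ± 0.111 in BALB/cJ to 2.33 ± 0.342 in BALB/cByJ. Its values were 1.94, 2.56 and 2.5 against 1.36, 1.33, 1.22 and 1.49, without overlap (log2 fold change 0.50, standard error 0.12, adjusted p 0.0498 in limma, 0.0321 to 0.199 over the alternatives). Of the 51 genes, 0 were called without BALB/cByJ 1, without BALB/cJ 2 or without BALB/cJ 4, and 1 was called when any other library was left out. The 51 were also listed with earlier results of these data known, so their shares are descriptive.

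By sub-list, both calls were among 16 duplication factors (median -0.17), and 0 of 18 gamma-tubulin and augmin genes (median -0.11), 0 of 11 appendage, satellite and linker partners (median -0.08) and 0 of 6 nuclear envelope partners (median -0.12) were called in limma, with 1 (5.56%), 2 (18.2%) and 1 (16.7%) of them at an unadjusted p under 0.05, beside 18.3% of all tested genes. Nearest to a call among the duplication factors were Cetn4, a centrin (log2 fold change 0.54, adjusted p 0.0857, limma), Poc5 (-0.46, adjusted p 0.117, limma), which binds centrin, and Poc1a (-0.35, adjusted p 0.136, limma), a protein of the centriole wall. Among the partners, Odf2, the subdistal appendage protein on which ninein depends, read 10.83, 12.54 and 10.65 in BALB/cByJ and 16.30, 14.16, 15.93 and 15.66 in BALB/cJ. It lay lower in every BALB/cByJ library, as Nin did, and also missed the threshold (log2 fold change -0.42, interval -0.64 to -0.20, adjusted p 0.059 in limma, 0.0513 to 0.275 over the alternatives).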

How the data were processed

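RNA-Seq was performed on ventricles of postnatal day 4 mice, with 3 BALB/cByJ and 4 BALB/cJ libraries of pooled hearts, sequenced by BGI Genomics. The authors deposited 1 table of signal values per gene and library, normalized for depth and transcript length (FPKM or TPM is not stated). The submitters' processing notes name mm10; the sources used here name no aligner or quantification. After log2(value + 1) transformation and removal of genes with a mean below 0.5, limma 3.58.1 in R 4.3.3 was fitted to all 12715 genes with strain as the only term and a variance trend, with Benjamini-Hochberg adjustment and a gene called at an adjusted p under 0.05. Intervals are at 95%. As the table holds no counts, no count test was used. Ratios of related genes (paralogues, and Akap6 with Akap9) were compared by exact permutation of the libraries. Tables were made with Python 3.11.15, pandas 2.3.3, numpy 2.4.6 and scipy 1.17.1, and figures with matplotlib 3.10.9. The fit was tested on simulated data, with changes placed among all 12715 genes. It called 37.3% of the 1.5-fold and 82.3% of the 2-fold changes, so changes of the size seen in the centrosomal genes can be missed. Recovery was not measured at the lower levels of these genes (median 5.21 beside 10.1), where log2(value + 1) shrinks a fold change more.

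Genes and lists were chosen with earlier results of these data known. Named were the 10 genes with the smallest p, the 3 highest and the 3 lowest tested, the highest of each role, Akap6, Pcm1, Pcnt, Akap9 and Cep295nl, up to 4 genes with the smallest p of each other list, and Cyth1; genes named beyond these were chosen after their values were seen. Transcript lengths, the longest per gene, were from GENCODE M39, known for 12192 of 12714 symbols (95.9%), and coordinates and promoters from RefSeq (GRCm38.p6). Alternatives were a pseudocount of 0.1, no filter, a mean of at least 2, quantile normalization, median ratio scaling, a replicate block, summed Y-linked expression as a covariate, no variance trend, and leaving out each library. For 1 of the 44 genes, which is in the counts over all members, no values of its own are reported or drawn here.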

Additional observations from a re-analysis of the deposited data

Results flagged for a closer look

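The Cep120 value of 9.89 in BALB/cJ 3 lay apart from the other 3 BALB/cJ libraries (8.75 to 8.93): its gap to the nearest of them made up 0.842 of the range of the group, above Dixon's critical value for 4 samples. Chance places about 1 in 20 groups past this value. Without BALB/cJ 3, the unadjusted p of Cep120 in limma was 0.109.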

How the results depend on the processing

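No centrosomal gene was called in any of the 16 alternatives, which tested 43 of them (38 at a mean of at least 2, and 44 without a filter), the smallest adjusted p being 0.0507 (limma, Nin without BALB/cJ 2), and depth is unknown, so what it limits cannot be given. Among the 16, libraries 1 to 3 with no block repeats the fit without BALB/cJ 4. Of 19 named members with a fit, 14 kept their sign in every alternative that tested them (Cep152, Cep290 and Ninl have no value at a mean of at least 2). Called genes over the whole table numbered 210, and 39 without a filter on low values, 46 with the Y-linked covariate and 64 to 186 with 1 library left out; the split of 98 higher and 112 lower became 108 and 49 after quantile normalization and 138 and 59 after median ratio scaling. Other centrosome genes called were 2, and 1 with a pseudocount of 0.1, a mean of at least 2 or quantile normalization, 0 without a filter or with the covariate, and 0 to 1 with 1 library left out. Proliferation genes called were 3, and 0 without a filter or with the covariate and 1 to 3 with 1 library left out, 1 each without BALB/cByJ 1 or BALB/cJ 4. The causes were not tested.

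The replicate numbers 1 to 3 are shared by the strains, but same-numbered libraries did not deviate together (correlations -0.194, -0.26 and -0.0501), and 0 of them correlated best with their own number. With a replicate block on libraries 1 to 3, 58 genes were called, beside 82 in the same libraries with no block (an alternative chosen after seeing the data), of which 0 and 0 were other centrosome genes and 0 and 1 proliferation genes.

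Of the 43 tested genes, 17 turned sign in some alternative, all with an estimate of at most 0.15 in size, 12 of them outside the named genes. Pcm1 ran from -0.08 to 0.08 with 1 library left out (-0.05 without BALB/cByJ 2, -0.08 without BALB/cJ 2). Cep83 was -0.27 with the covariate and ran from -0.06 to 0.14 with 1 library left out. Cep57 was 0.05 after quantile normalization and after median ratio scaling and 0.06 with the block and in the same libraries with no block, and ran from -0.09 to 0.06 with 1 library left out. Cep95 was 0.10 and 0.06 after the same scalings and 0.03 with and without the block, and ran from -0.11 to 0.05. Akap9 was 0.04 and 0.01 after the scalings and 0.01 with the covariate.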

Other observations

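Ratios between related members were formed within each library, which removes any factor that scales both genes alike. Over 5 pairs, the ratio of Cep57 to its paralogue Cep57l1 was 2.83, 2.94 and 2.53 in BALB/cByJ and 3.20, 3.25, 3.16 and 3.51 in BALB/cJ. It was lower in every BALB/cByJ library, with mean log2 ratios of 1.47 ± 0.11 and 1.71 ± 0.07 (SD, n = 3 and 4), and the 2-sided exact permutation p was 0.0286, the smallest that 35 arrangements allow, and 0.143 after Benjamini-Hochberg adjustment over the 5 pairs. Akap6 and Akap9 share a family name and are not a paralogue pair. Their ratio was 3.89, 4.00 and 3.81 in BALB/cByJ and 3.37, 3.97, 3.17 and 3.24 in BALB/cJ, where BALB/cJ 2 joined the BALB/cByJ range (exact permutation p 0.114, adjusted 0.25). The pairs of Cep85 with Cep85l, Cep170 with Cep170b and Nin with Ninl overlapped between the strains (exact permutation p 0.171, 0.2 and 0.943, adjusted 0.25, 0.25 and 0.943). Reads of paralogues can be split between copies by the quantification, which is not described in the sources used here.

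The spread between libraries of a strain was slightly wider for the 43 centrosomal genes than for all tested genes, with a median coefficient of variation of 12.8% in BALB/cByJ and 12.4% in BALB/cJ, beside 11.5% and 11.7%. The centrosomal genes had lower levels (median 5.21 beside 10.1), and the spread was not compared at matched level.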
